A study of Mus musculus with 10 samples.

Results

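Aminoacyl-tRNA synthetases were followed in ribosome profiling data of mouse embryonic stem cells, in which translation had been stopped with 3 different inhibitors. The members were the coding transcripts whose GENCODE M21 symbol was a single letter followed by ars, ars1 or ars2, together with Eprs, Farsa and Farsb. This gave 37 of the 14534 coding transcripts in the files, 1 listed transcript per gene. 20 of them were counted as cytosolic and the 17 whose symbol ends in 2 as mitochondrial. The cells were the feeder-free line CGR8, grown with leukemia inhibitory factor. The control received no drug, DMDA-PatA was given at 1 µM for 10 min, harringtonine at 2 µg/ml for 10 min and puromycin at 0.2 mg/ml for 20 min, with the amount of DMSO made equal in all samples. Each of these conditions had 2 libraries of RNase I protected fragments (footprints), and the transcriptome of untreated cells had 2 libraries of fragmented RNA. All lysates contained cycloheximide, and nuclei and most mitochondria had been spun out before the digestion. The study's methods call the replicates biological, without saying whether they came from separate cultures, and every p-value measures the spread between these libraries.

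An aminoacyl-tRNA synthetase joins an amino acid to its tRNA and thereby supplies the ribosome with its substrate. Mammalian cells hold one set of these enzymes in the cytosol and another in the mitochondrial matrix. Both sets are encoded in the nucleus, and the mitochondrial enzymes are made on cytosolic ribosomes before they are imported. Several cytosolic enzymes sit together in the multi-synthetase complex, and Gars and Kars each encode a cytosolic and a mitochondrial form from one gene. DMDA-PatA acts on the helicase eIF4A and blocks initiation, harringtonine holds ribosomes at the start of an ORF while those ahead run off, and puromycin releases nascent chains from elongating ribosomes.

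Synthetase ORFs took 1.42% and 1.36% of all coding ORF reads in the 2 control libraries and 0.853% and 0.824% in the transcriptome. These shares correspond to 128877 and 143970 control reads and to 142035 and 313632 transcriptome reads. Under DMDA-PatA the synthetases had 7200 and 8518 reads, under harringtonine 14766 and 13343, and under puromycin 6013 and 12114. In all coding ORFs the libraries held between 618334 and 38046741 reads. The share of coding reads that lay in 5' UTRs was 3.98% and 4.25% in the control and between 17.4% and 37.7% in the drug libraries. Of the markers of stem cells, 8 of 8 were detected in the transcriptome, from 716 and 1878 reads for Dppa5a to 6032 and 11860 for Pou5f1. Of 6 fibroblast markers, Col1a1, Col1a2, Col3a1 and Postn had between 6592 and 210557 reads in a library, Thy1 had 77 and 192 and Dcn 8 and 28. Of 6 markers of differentiated derivatives, Sox17, Gata4, Gata6 and Pax6 had between 2 and 180 reads, T had 1545 and 3999, and Afp was not among the listed transcripts. The part of these genes in the results below was not tested.

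The start codons of members on which the results turn are shown first, read from GRCm38 at the positions GENCODE M21 gives for the listed transcripts. Each window holds the 13 bases before an AUG and the 10 after it, 5′ to 3′, and capitals mark the ATG. Gars is shown with its annotated start at chr6:55038029-55038054 (+ strand) and the next in-frame ATG, 46 codons downstream at chr6:55038167-55038192, because its transcript encodes 2 forms of the enzyme. Kars (chr8:112008340-112008365, - strand) also encodes both forms as a gene, and lost 5' UTR footprints with DMDA-PatA. Its window shows the start of the listed transcript only, since the start of a shorter Kars coding transcript is absent from it. Sars (chr3:108445120-108445145, - strand) and Eprs (chr1:185363185-185363210, + strand) are cytosolic members with more 5' UTR footprints under a drug. Fars2 (chr13:36232193-36232218, + strand) and Tars2 (chr3:95754826-95754851, - strand) are mitochondrial members, the former with the largest ratio of means with DMDA-PatA, on 3 reads, and the latter with the smallest of that set with harringtonine.
Gars annotated start: aggcggcgtgctcATGccctgtctgc
Gars next in-frame ATG: ctcccggagcagcATGgacagcgcgg
Kars: agggtgttccgccATGttgatgcaag
Sars: gtgaggtagaaggATGgtgctggacc
Eprs: cagctcctgggagATGgcggcgctgt
Fars2: ggagacacacaccATGgaggctgtga
Tars2: gatttgagacagcATGggtctctgtc

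The base 3 before the ATG was A or G in 15 of 20 cytosolic members (75.0%), 15 of 17 mitochondrial members (88.2%) and 85.8% of all coding transcripts. At the Gars annotated start this base was C, and at its next in-frame ATG it was A. An ATG upstream of the start was present in 6 of 20 cytosolic (30.0%) and 9 of 17 mitochondrial members (52.9%), against 50.4% of all coding transcripts. Pars2 held 13 upstream ATGs, the most of any member. These are letters in the annotation and not measured starts.

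The listed model limits some members. The listed ORF of Dars, the aspartate enzyme, had 261 nt and 17.3% of the longest Dars coding sequence in GENCODE M21, that of Fars2 48.5% and that of Tars2 58.4%. In 12 of 37 members the listed start lay at another transcript position than in GENCODE M21, while the coding length was the same in 36. Of the 149 nt listed as the 5' UTR of Kars, 57 nt are coding in another Kars transcript, as are 34 nt of the Pars2 5' UTR. For Fars2 84 nt are, out of the 232 nt that GENCODE M21 gives as its 5' UTR. Its footprints were counted on a listed 5' UTR of 679 nt, which was not checked as a whole. Hars and Hars2 overlap head to head on opposite strands, and Cars2, Ears2, Nars2 and Vars2 also overlap exons of a gene on the other strand. Whether strand was used in counting is not given in the sources used here, so the values of these 6 genes are uncertain.

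In the control, cytosolic synthetases carried far more footprints than mitochondrial ones. Normalized control footprints per kb of ORF ranged from 1355 (Iars) to 5883 (Aars) among the 20 cytosolic members, with a median of 2493, and the 17 mitochondrial members had a median of 188 and their lowest value, 76.1, on Wars2. The ranges did not overlap, and the median of all coding ORFs was 144. In the transcriptome the median was 3329 normalized reads per kb for cytosolic, 490 for mitochondrial and 450 for all coding ORFs, and here the ranges met, since Iars2 (1946 and 2032 reads per kb in the 2 libraries) lay above Dars (1382 and 1300.3). In bulk lysates such as these, fewer cells holding a transcript and less of it per cell cannot be told apart.

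At the top of the cytosolic order stood Aars, the alanine enzyme, with 6617 and 5149 control footprints per kb. Kars, the lysine enzyme of the complex, followed with 5894 and 5628 and Nars, which charges asparagine tRNA, with 5909 and 4940.0. These 3 overlapped between libraries, so their order was not resolved. Sars, the serine enzyme (5345 and 4591), overlapped Aars and Nars, while both Kars libraries lay above both of its own. The lowest cytosolic levels were those of Iars, the isoleucine enzyme, with 1447 and 1263, and Cars, the cysteine enzyme, with 1505 and 1274. Among the mitochondrial enzymes Iars2, for isoleucine, had 599.9 and 522. Wars2, for tryptophan, had 80.8 and 71.3 and Vars2, for valine, 89.3 and 76.4. Gars, the glycine enzyme, had 4715 and 3778 footprints per kb, and neither its level nor that of Kars can be divided between the cytosolic and mitochondrial form.

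Cytosolic synthetases also had more footprints for their RNA. The TE-score, the share of all coding footprints divided by the share of all coding transcriptome reads, had a median of 1.89 over the cytosolic members (1.94 and 1.87 in the replicates), 0.935 over the mitochondrial members (0.885 and 0.872) and 0.883 over all 13717 coding ORFs tested. By edgeR's quasi-likelihood test 19 of 20 cytosolic members were higher in footprints than in RNA, against 29.9% of all ORFs tested, and none was lower. Of the mitochondrial members 4 were higher, among them Rars2, Sars2 and Tars2, and 6 lower (Cars2, Iars2, Lars2, Mars2, Pars2 and Vars2), against 41.2% lower over all ORFs, and 7 did not pass. The count of 4 was 1 without control replicate 2 and 2 without transcriptome replicate 2.

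**Figure D1:**
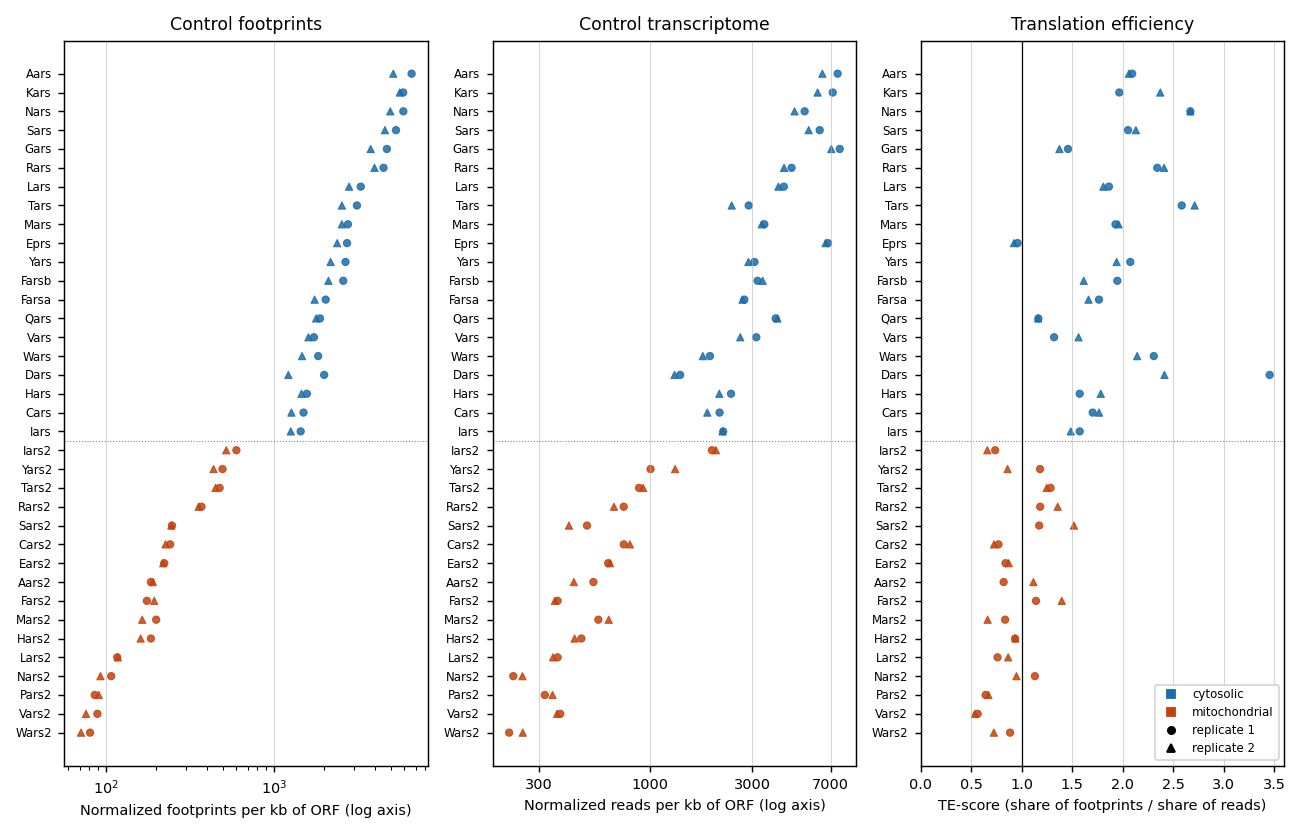
Normalized control footprints per kb of ORF (left, log axis), normalized transcriptome reads per kb of ORF (middle, log axis) and TE-score (right, linear axis) of 36 of the members, cytosolic in blue above the dotted line and mitochondrial in orange below it, with a circle for replicate 1 and a triangle for replicate 2. The footprint ranges of the 2 sets do not meet, and all cytosolic TE-scores but those of Eprs lie above 1, the vertical line, while the mitochondrial ones lie on either side of it.

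The highest TE-scores among the cytosolic enzymes were those of Dars (3.45 and 2.41 in the replicates), Nars (2.67 in both) and Tars, the threonine enzyme (2.58 and 2.71). In log2 of footprints over RNA, given here and below ± SE, the edgeR estimates were 1.55 ± 0.16 (adjusted p = 7.5e-07) for Dars, 1.42 ± 0.09 (adjusted p = 7.6e-09) for Nars and 1.40 ± 0.10 (adjusted p = 1.8e-08) for Tars. Replicates of Dars lay far apart, and its value comes from a short listed ORF. Eprs, which joins glutamate and proline to their tRNAs in a single protein, was the exception of the cytosolic set with TE-scores of 0.959 and 0.923 and a log2 ratio of -0.09 ± 0.09 (adjusted p = 0.39) by edgeR. It ranked high in RNA, at 6811 and 6637 transcriptome reads per kb, and in the middle in footprints, at 2732 and 2387 per kb. Qars, the glutamine enzyme, had TE-scores of 1.16 in both replicates and a log2 ratio of 0.22 ± 0.09 (adjusted p = 0.045), and the edgeR adjusted p was 0.071 without control replicate 1, 0.22 without control replicate 2 and 0.15 without transcriptome replicate 1. The genes with both forms had log2 ratios of 0.50 ± 0.10 for Gars and 1.11 ± 0.10 for Kars, with edgeR adjusted p of 0.00026 and 1.3e-07.

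Among the mitochondrial enzymes Vars2 had the lowest TE-scores, 0.564 and 0.535, and fell below the average of all reads with a log2 ratio of -0.86 ± 0.12 (adjusted p = 1.1e-05) by edgeR. Pars2, for proline, scored 0.642 and 0.670 (log2 ratio -0.61 ± 0.15, edgeR adjusted p = 0.0023, adjusted p 0.06 by DESeq2). Iars2 scored 0.737 and 0.659 (log2 ratio -0.52 ± 0.09, edgeR adjusted p = 0.00018), although its RNA level was the highest of the mitochondrial set. Above the average, Sars2, for serine, scored 1.17 and 1.52 (log2 ratio 0.42 ± 0.13, edgeR adjusted p = 0.0077). For Sars2 the edgeR adjusted p was 0.064 without control replicate 2 and 0.1 without transcriptome replicate 2.

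For 16 amino acids a cytosolic and a mitochondrial member could be set side by side, with Eprs beside Ears2 and Farsa beside Fars2. The cytosolic enzyme had the higher TE-score in 16 of 16 pairs and in both replicates of each, with a median ratio of 2.17 and a range from 1.10 (Eprs over Ears2) to 2.77 (Wars over Wars2). Members are not replicates, so these pairs are a description.

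All 3 drugs lowered the ORF footprints of the synthetases. Fold inhibition is the ratio of the control mean to the drug mean of the deposited values, on the scale of the authors' spike-in, and members are ranked by it here. A fold given for a replicate sets same-numbered libraries side by side, a pairing by number only. By edgeR, DMDA-PatA lowered 20 of 20 cytosolic and 17 of 17 mitochondrial members, where 99.8% of the 12298 coding ORFs tested were lowered. Harringtonine lowered 19 of 20 and 17 of 17 (93.9% of all), and puromycin 19 of 20 and 17 of 17 (91.1% of all), and with both drugs the exception was Dars. These counts are thus close to those of coding ORFs in general. With DMDA-PatA the control libraries lay above both drug libraries in all 37 members, and with harringtonine and puromycin in 36. No such count was made over all coding ORFs, so this separation, here and below, cannot be read as particular to the synthetases. The 3 comparisons share the control libraries.

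With each drug the median inhibition was larger over the cytosolic than over the mitochondrial members. With DMDA-PatA the median fold inhibition was 23.3 for cytosolic members (32.9 and 17.9 in the replicate pairs), 13.3 for mitochondrial members (16.5 and 10.98) and 20.1 for all coding ORFs. With harringtonine the medians were 12.5, 9.51 and 7.84, and with puromycin 9.81, 7.53 and 5.65, in the same order. In the replicate pairs the harringtonine medians were 10.4 and 14.5 for cytosolic and 9.50 and 13.8 for mitochondrial members, which overlapped. With puromycin they were 12.2 and 8.34 against 7.36 and 7.72. Among members with at least 100 transcriptome reads and 100 control footprints, the gaps were smaller, with 12.5 against 11.1 for harringtonine and 9.81 against 9.32 for puromycin. Over the 8 members of the multi-synthetase complex the medians were 24.8, 15.2 and 15.2 for DMDA-PatA, harringtonine and puromycin, and over the 12 cytosolic members outside it 23.1, 9.99 and 8.10. No test was made of these medians. The median ORF had 2073 nt in cytosolic and 1569 nt in mitochondrial members, against 1335 nt in all coding transcripts. In the complex ORFs had 1872 to 4536 nt, apart from Dars with 261 nt, and outside it 1425 to 3789 nt. The paper reports that harringtonine blocked short coding sequences less, an effect strongest with puromycin. The part of ORF length in these medians was not tested. The summed ORF footprints of the cytosolic set were 143481 and 122792 in the control and 4139 and 6303 under DMDA-PatA, and those of the mitochondrial set 8452 and 7714 in the control and 406 and 611 under DMDA-PatA.

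**Figure D2:**
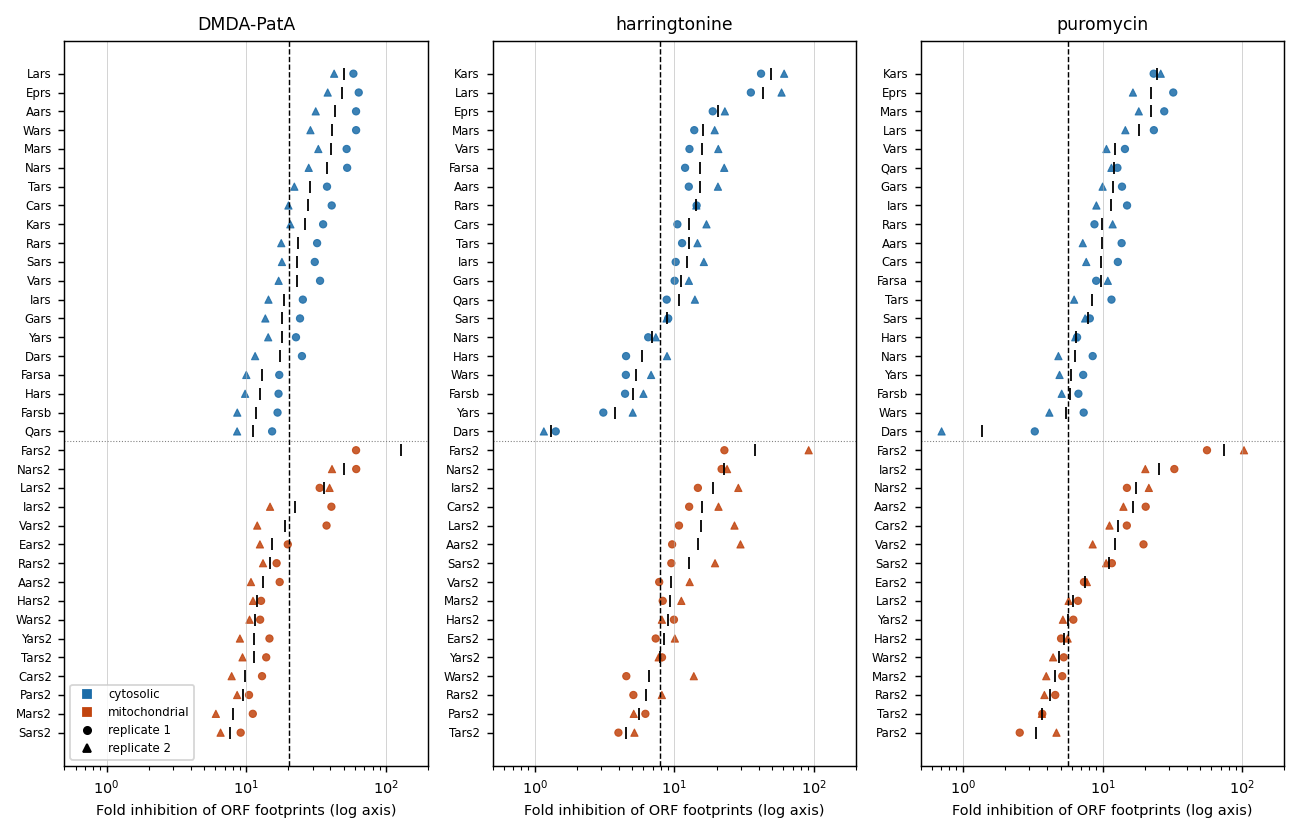
Fold inhibition of ORF footprints (control over drug, log axis) of 36 of the members with DMDA-PatA, harringtonine and puromycin, ordered by fold within each set, cytosolic in blue and mitochondrial in orange. Circles and triangles are the same-numbered replicate pairs, black ticks the ratio of means, and the dashed line the median of all coding ORFs (20.1, 7.84 and 5.65). Fars2 has no triangle with DMDA-PatA because that library held 0 footprints, and Dars lies near 1 under harringtonine and puromycin.

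In the multi-synthetase complex, Lars, the leucine enzyme, had 11649.9 and 9935 normalized ORF footprints in the control, 199 and 234 under DMDA-PatA, 331 and 170.1 under harringtonine and 500.4 and 683 under puromycin. These are fold inhibitions of 49.8, 43.1 and 18.2, and the log2 fold change with DMDA-PatA was -5.64 ± 0.55 (adjusted p = 1.2e-23) by edgeR. Eprs had 12393 and 10828 in the control, 194 and 283 under DMDA-PatA, 659 and 472 under harringtonine and 387 and 657 under puromycin, which are fold inhibitions of 48.6, 20.5 and 22.3 and a log2 fold change with DMDA-PatA of -5.60 ± 0.55 (adjusted p = 2.1e-23) by edgeR. By the ratio of means both lost most with DMDA-PatA among the cytosolic members, although in replicate 1 Aars and Wars had larger folds than Lars. Kars had 11034 and 10535 in the control, 311 and 509.7 under DMDA-PatA, 265 and 173 under harringtonine and 476 and 404 under puromycin. Its fold inhibitions were 26.3, 49.3 and 24.5. By the ratio of means harringtonine and puromycin took more from it than from any other cytosolic member. The log2 fold changes were -5.62 ± 0.55 (adjusted p = 2.0e-22) and -4.62 ± 0.52 (adjusted p = 6.7e-17) by edgeR. With puromycin, however, Eprs and Mars had larger folds than Kars in replicate 1.

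Mars, the methionine enzyme, had 7482 and 6887 normalized ORF footprints in the control, 143 and 210.2 under DMDA-PatA, 539.8 and 355 under harringtonine and 271 and 379 under puromycin, with fold inhibitions of 40.6, 16.1 and 22.1. Iars had 5479.5 and 4784 in the control, 216 and 332 under DMDA-PatA, 537 and 295 under harringtonine and 366 and 529.7 under puromycin (18.7, 12.3 and 11.5 fold). Rars, the arginine enzyme, had 8918 and 7883 in the control, 278 and 443 under DMDA-PatA, 619 and 549 under harringtonine and 1019 and 668 under puromycin (23.3, 14.4 and 9.96 fold). These 3 kept a clear gap between control and drug libraries. Qars had 4385 and 4158 in the control, 287 and 484 under DMDA-PatA, 498 and 297 under harringtonine and 343 and 359 under puromycin. With fold inhibitions of 11.1, 10.7 and 12.2 it was the cytosolic member that DMDA-PatA inhibited least (log2 fold change -3.47 ± 0.49, edgeR adjusted p = 1.4e-12).

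Dars stood apart from the complex. It had 521 and 319 normalized ORF footprints in the control, 20.8 and 27.6 under DMDA-PatA, 368 and 274 under harringtonine and 159 and 453 under puromycin, and the control overlapped the harringtonine and the puromycin libraries. DMDA-PatA lowered it 17.3 fold (log2 fold change -4.12 ± 0.50, edgeR adjusted p = 2.7e-16). With harringtonine the log2 fold change was -0.39 ± 0.42 (adjusted p = 0.37) and with puromycin -0.44 ± 0.43 (adjusted p = 0.31) by edgeR. Without puromycin replicate 2 the latter was -1.40 (edgeR adjusted p = 0.038), and when DMDA-PatA and harringtonine libraries traded size factors the former was -0.62 (edgeR adjusted p = 0.031). The listed Dars ORF of 261 nt is the shortest of all members.

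Outside the complex the control libraries of every member lay above all of its drug libraries. Aars had 19216 and 14952 normalized ORF footprints in the control, 315 and 476 under DMDA-PatA, 1517 and 730.1 under harringtonine and 1404 and 2072 under puromycin (43.2, 15.2 and 9.83 fold inhibition by DMDA-PatA, harringtonine and puromycin). Wars, the tryptophan enzyme, had 2621 and 2101 in the control, 42.9 and 73.1 under DMDA-PatA, 583 and 309 under harringtonine and 358 and 505 under puromycin (40.7, 5.29 and 5.47 fold). With DMDA-PatA both ranked just below Lars and Eprs by the ratio of means, although in replicate 1 both had larger folds than Lars. With harringtonine and puromycin, in contrast, Wars stood among the least inhibited cytosolic members. Nars had 9909.8 and 8284 in the control, 188 and 296 under DMDA-PatA, 1527 and 1126 under harringtonine and 1166 and 1715 under puromycin (37.6, 6.86 and 6.32 fold). Tars had 6777 and 5516 in the control, 179 and 250.0 under DMDA-PatA, 598 and 377 under harringtonine and 585 and 882 under puromycin (28.6, 12.6 and 8.38 fold), and for Cars the values were 3378 and 2860.0 in the control, 82.7 and 143 under DMDA-PatA, 322 and 169 under harringtonine and 263 and 374 under puromycin, a fold inhibition of 27.7, 12.7 and 9.79. In these 3 genes DMDA-PatA left the fewest footprints in every replicate.

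Gars had 10311 and 8262 normalized ORF footprints in the control, 426 and 604 under DMDA-PatA, 1028 and 651 under harringtonine and 749 and 826 under puromycin, and its fold inhibitions were 18.0, 11.1 and 11.8. By edgeR its log2 fold changes were -4.17 ± 0.51 (adjusted p = 6.9e-16) under DMDA-PatA, -3.47 ± 0.49 (adjusted p = 7.5e-12) under harringtonine and -3.56 ± 0.50 (adjusted p = 6.0e-12) under puromycin. Gars lay below the cytosolic median fold with DMDA-PatA and harringtonine and above it with puromycin. Sars had 8209.8 and 7052 in the control, 266 and 392 under DMDA-PatA, 909 and 803 under harringtonine and 1013 and 940.1 under puromycin (23.2, 8.91 and 7.81 fold). Vars, the valine enzyme, had 6576 and 6098 in the control, 195 and 358 under DMDA-PatA, 513 and 296 under harringtonine and 455 and 572 under puromycin (22.9, 15.7 and 12.3 fold).

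The phenylalanine enzyme is made of 2 subunits from separate genes. Farsa, the alpha subunit, had 3108 and 2670.5 normalized ORF footprints in the control, 181 and 267 under DMDA-PatA, 261 and 118 under harringtonine and 345 and 245 under puromycin (12.9, 15.3 and 9.79 fold). Farsb, the beta subunit, had 4584 and 3742 in the control, 274 and 434 under DMDA-PatA, 1034 and 624 under harringtonine and 682 and 734 under puromycin (11.8, 5.02 and 5.88 fold). Their folds lay close with DMDA-PatA and apart with harringtonine, though no test set one subunit against the other. Hars, the histidine enzyme, had 2405 and 2236 in the control, 141 and 228 under DMDA-PatA, 534 and 253 under harringtonine and 366 and 351 under puromycin (12.6, 5.90 and 6.48 fold). Yars, the tyrosine enzyme, had 4523 and 3690.3 in the control, 199 and 257 under DMDA-PatA, 1460.0 and 734 under harringtonine and 622 and 749.8 under puromycin (18.0, 3.74 and 5.99 fold). After Dars, Yars was the cytosolic member that harringtonine lowered least.

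With DMDA-PatA the folds of the mitochondrial enzymes spanned a wider range than those of the cytosolic ones. Fars2, for phenylalanine, had 116 and 128 normalized ORF footprints in the control, 1.89 and 0 under DMDA-PatA, 5.07 and 1.40 under harringtonine and 2.07 and 1.24 under puromycin. Its DMDA-PatA value rests on 3 reads in 1 library and 0 in the other, which allows up to 2.44 normalized footprints there. Over both libraries the pooled ratio of control to DMDA-PatA was 115 (exact binomial 95% interval 38.9 to 561), and that to puromycin, on 2 reads, was 78.9 (21.6 to 655). These intervals cover counting error only. In replicate 1 the fold of Fars2 with DMDA-PatA was 61.0, no larger than those of Nars2 (61.2) and Eprs (63.7), so its rank rests on replicate 2. By edgeR Fars2 fell by 6.70 on the log2 scale with DMDA-PatA (SE 0.67, adjusted p = 1.5e-22).

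Nars2, for asparagine, had 154 and 133 normalized ORF footprints in the control, 2.53 and 3.25 under DMDA-PatA, 7.10 and 5.60 under harringtonine and 10.3 and 6.22 under puromycin (49.8, 22.6 and 17.4 fold). Lars2, for leucine, had 317 and 320.0 in the control, 9.47 and 8.12 under DMDA-PatA, 29.4 and 11.9 under harringtonine and 47.6 and 56.0 under puromycin (36.2, 15.4 and 6.15 fold). Iars2 had 1821 and 1585 in the control, 44.8 and 107 under DMDA-PatA, 124 and 55.3 under harringtonine and 55.8 and 78.3 under puromycin (22.4, 19.0 and 25.4 fold). Like Fars2, these were inhibited more than the all-coding median of 20.1 by DMDA-PatA. Vars2 had 284 and 243 in the control, 7.58 and 20.3 under DMDA-PatA, 36.5 and 18.9 under harringtonine and 14.5 and 28.6 under puromycin (18.9, 9.51 and 12.2 fold). Aars2, for alanine, had 547 and 561 in the control, 31.6 and 51.9 under DMDA-PatA, 56.8 and 18.9 under harringtonine and 26.9 and 39.8 under puromycin (13.3, 14.6 and 16.6 fold).

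At the lower end, Sars2 had 385 and 383 normalized ORF footprints in the control, 42.3 and 58.4 under DMDA-PatA, 40.6 and 19.6 under harringtonine and 33.1 and 36.1 under puromycin. Its fold inhibitions were 7.62, 12.8 and 11.1, by the ratio of means the smallest by DMDA-PatA among all members (log2 fold change -2.93 ± 0.45, edgeR adjusted p = 9.5e-11). In replicate 2 the fold of Mars2 with DMDA-PatA was smaller than that of Sars2. Mars2, for methionine, had 351 and 290.1 in the control, 31.6 and 47.9 under DMDA-PatA, 42.6 and 25.9 under harringtonine and 68.2 and 73.4 under puromycin (8.07, 9.36 and 4.53 fold). Pars2 had 132 and 139.6 in the control, 12.6 and 16.2 under DMDA-PatA, 21.3 and 27.3 under harringtonine and 51.7 and 29.8 under puromycin (9.41, 5.59 and 3.33 fold). By the ratio of means this was the smallest inhibition by puromycin of the mitochondrial members, but in replicate 2 Tars2, Rars2 and Mars2 were among those with smaller folds. Tars2, for threonine, had 605 and 572 in the control, 43.6 and 60.9 under DMDA-PatA, 152 and 111 under harringtonine and 163 and 155 under puromycin (11.3, 4.48 and 3.69 fold). By the ratio of means its inhibition by harringtonine was the smallest of the mitochondrial set, though in replicate 2 the fold of Pars2 was slightly smaller. Cars2, for cysteine, had 401 and 376 in the control, 30.9 and 47.9 under DMDA-PatA, 31.5 and 18.2 under harringtonine and 26.9 and 33.6 under puromycin (9.86, 15.6 and 12.9 fold).

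Hars2, for histidine, had 282 and 245 normalized ORF footprints in the control, 22.1 and 21.9 under DMDA-PatA, 28.4 and 30.1 under harringtonine and 55.8 and 43.5 under puromycin (11.96, 8.999 and 5.30 fold). Yars2, for tyrosine, had 703 and 621 in the control, 48.0 and 69.0 under DMDA-PatA, 86.2 and 80.5 under harringtonine and 114 and 119 under puromycin (11.3, 7.94 and 5.68 fold). Rars2, for arginine, had 645 and 620.0 in the control, 39.1 and 47.1 under DMDA-PatA, 127 and 76.3 under harringtonine and 141 and 162 under puromycin (14.7, 6.23 and 4.18 fold). With DMDA-PatA these 3 lay close to the mitochondrial median of 13.3. Ears2, for glutamate, had 350.1 and 345 in the control, 17.7 and 27.6 under DMDA-PatA, 47.7 and 34.3 under harringtonine and 47.6 and 44.8 under puromycin (15.4, 8.48 and 7.53 fold). Wars2 had 87.2 and 77.1 in the control, 6.94 and 7.31 under DMDA-PatA, 19.3 and 5.60 under harringtonine and 16.5 and 17.4 under puromycin (11.5, 6.60 and 4.84 fold). In these 5 genes each drug library lay below both control libraries.

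Within the 16 amino acid pairs, the cytosolic enzyme had the larger fold inhibition in 12 pairs with DMDA-PatA (10 in both replicates, median ratio 1.59), in 7 under harringtonine (6 in both, median ratio 0.807) and in 9 under puromycin (6 in both, median ratio 1.03). The ratio with DMDA-PatA ran from 0.100 (Farsa over Fars2) to 5.03 (Mars over Mars2).

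A second fit asked which members fell more or less than the bulk of coding ORFs. Library sizes were scaled by TMM, which centres the bulk near no change and does not use the spike-in, and the median of all ORFs was -0.11 under DMDA-PatA, -0.12 under harringtonine and -0.04 under puromycin. With DMDA-PatA 9 of 20 cytosolic members were lower and 4 higher than the bulk by edgeR, against 4 lower and 7 higher of 17 mitochondrial members. Over all ORFs 23.5% were lower and 18.6% higher. With harringtonine 13 cytosolic members were lower and 4 higher, and 8 mitochondrial members lower and 1 higher (29.9% and 26.3% of all). With puromycin 14 cytosolic members were lower and 1 higher, and 8 mitochondrial members lower and 1 higher (24.9% and 24.1% of all). In the complex 7 of 8 members were lower with harringtonine and with puromycin and Dars was the higher one, while with DMDA-PatA 4 were lower and 1 higher.

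Several of these counts rested on 1 library. The 4 cytosolic members higher with DMDA-PatA were 2 without control replicate 1 or DMDA-PatA replicate 2 and 1 without control replicate 2. The 4 mitochondrial members lower with DMDA-PatA were 1 without control replicate 1, control replicate 2 or DMDA-PatA replicate 2, and the 7 higher were 4 without DMDA-PatA replicate 1 or DMDA-PatA replicate 2. With harringtonine the 4 higher cytosolic members were 2 without control replicate 1 or control replicate 2, and the 1 higher mitochondrial member was 2 without harringtonine replicate 1. The 1 higher mitochondrial member with puromycin was lost without control replicate 1 or control replicate 2.

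In the complex, the log2 fold changes relative to the bulk (edgeR, ± SE) were -1.37 ± 0.20, -2.59 ± 0.21 and -1.72 ± 0.20 for Lars in the order DMDA-PatA, harringtonine, puromycin, and -1.36 ± 0.21, -1.46 ± 0.21 and -1.9997 ± 0.22 for Eprs. For Mars they were -1.11 ± 0.19, -1.12 ± 0.19 and -1.99 ± 0.19. All 9 values were below the bulk past the threshold. Kars was at -0.50 ± 0.18 (adjusted p = 0.032) under DMDA-PatA, -2.75 ± 0.19 (adjusted p = 5.1e-10) under harringtonine and -2.15 ± 0.19 (adjusted p = 2.0e-08) under puromycin by edgeR. The call of Kars with DMDA-PatA was lost without any one of its 4 libraries, with edgeR adjusted p between 0.084 and 0.17. Qars was above the bulk with DMDA-PatA (0.75 ± 0.17, adjusted p = 0.0016) and below it with harringtonine (-0.56 ± 0.17, adjusted p = 0.0087) and puromycin (-1.14 ± 0.18, adjusted p = 2.3e-05) by edgeR. Its value with harringtonine was not called without control replicate 2 (-0.56, adjusted p = 0.059) or harringtonine replicate 1 (-0.49, adjusted p = 0.061). Dars was above the bulk with harringtonine (2.53 ± 0.29, adjusted p = 3.1e-07) and puromycin (2.06 ± 0.30, adjusted p = 8.3e-06) and had 0.15 ± 0.37 (adjusted p = 0.78) under DMDA-PatA by edgeR.

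Of the other cytosolic members, Aars was below the bulk with DMDA-PatA (-1.19 ± 0.21, adjusted p = 9.1e-05), with harringtonine (-1.10 ± 0.20, adjusted p = 9.7e-05) and with puromycin (-0.82 ± 0.20, adjusted p = 0.0019) by edgeR, the last of which was -0.52 (adjusted p = 0.064) without puromycin replicate 1. Wars was below it with DMDA-PatA (-1.12 ± 0.21, adjusted p = 0.00018) and above it with harringtonine (0.44 ± 0.18, adjusted p = 0.046), and the second call was lost without control replicate 1, control replicate 2 or harringtonine replicate 1 (edgeR adjusted p 0.12, 0.3 and 0.098). Yars was above the bulk with harringtonine (0.93 ± 0.18, edgeR adjusted p = 0.00018). Farsb was above it with DMDA-PatA (0.68 ± 0.18, adjusted p = 0.0039, adjusted p = 0.06 without control replicate 2) and with harringtonine (0.54 ± 0.17, adjusted p = 0.011, adjusted p = 0.061 and 0.15 without control replicate 1 and control replicate 2). Hars was above it with DMDA-PatA (0.57 ± 0.18, adjusted p = 0.014), with edgeR adjusted p of 0.09, 0.066 and 0.095 without control replicate 1, control replicate 2 or DMDA-PatA replicate 2.

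In the mitochondrial set Fars2 was at -2.55 ± 0.71 (adjusted p = 0.0061) under DMDA-PatA, -2.45 ± 0.51 (adjusted p = 0.00034) under harringtonine and -3.78 ± 0.72 (adjusted p = 0.00019) under puromycin by edgeR, and its first value was -1.45 (adjusted p = 0.16) without DMDA-PatA replicate 2. Nars2 was at -1.38 ± 0.47 (adjusted p = 0.022), -1.59 ± 0.37 (adjusted p = 0.00089) and -1.73 ± 0.42 (adjusted p = 0.0018) in the same order. Its edgeR adjusted p with DMDA-PatA was 0.078 without DMDA-PatA replicate 1 and 0.16 without DMDA-PatA replicate 2, and with puromycin 0.087 without puromycin replicate 2. Iars2 was below the bulk with harringtonine (-1.43 ± 0.22, adjusted p = 8.8e-06) and puromycin (-2.16 ± 0.24, adjusted p = 3.2e-07) by edgeR.

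Other mitochondrial members were above the bulk with DMDA-PatA, and some of them below it with the other drugs. Sars2 was at 1.31 ± 0.20 (adjusted p = 2.1e-05) under DMDA-PatA, -0.85 ± 0.22 (adjusted p = 0.0023) under harringtonine and -1.0008 ± 0.24 (adjusted p = 0.0017) under puromycin by edgeR, and Cars2 at 0.93 ± 0.20 (adjusted p = 0.00092), -1.11 ± 0.22 (adjusted p = 0.00023) and -1.19 ± 0.24 (adjusted p = 0.00039). Mars2 was above the bulk with DMDA-PatA (1.22 ± 0.20, adjusted p = 6.3e-05), as was Pars2 (1.00 ± 0.36, adjusted p = 0.029, adjusted p between 0.1 and 0.19 without control replicate 1, DMDA-PatA replicate 1 or DMDA-PatA replicate 2) by edgeR. Tars2 was the 1 mitochondrial member above the bulk with each drug, at 0.75 ± 0.20 (adjusted p = 0.0048), 0.73 ± 0.18 (adjusted p = 0.0018) and 0.58 ± 0.19 (adjusted p = 0.017) by edgeR. Its call with puromycin was lost without control replicate 1 (adjusted p = 0.11) or control replicate 2 (adjusted p = 0.074). The 3 comparisons share the control libraries, so these values stand side by side and no overlap was tested. Rars2, Ears2 and Wars2 were not called in this fit with any drug.

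Drugs were also set against each other on the spike-in scale, at the doses and times given above. DMDA-PatA left fewer ORF footprints than harringtonine on 12 of 20 cytosolic and 2 of 17 mitochondrial members (Rars2 and Tars2) by edgeR, where 53.0% of all ORFs tested were lower. Against puromycin 13 cytosolic and 7 mitochondrial members were lower (67.9% of all). The medians of all ORFs in these comparisons were -1.36 and -1.78 on the log2 scale. Without DMDA-PatA replicate 1 the counts against harringtonine were 4 and 0, and without harringtonine replicate 1 they were 7 and 1, while without harringtonine replicate 2 the mitochondrial count was 6. Against puromycin they were 8 and 3 without DMDA-PatA replicate 1, 8 and 4 without puromycin replicate 2, and the mitochondrial count was 4 without puromycin replicate 1. None of the members passed the test between harringtonine and puromycin in edgeR (10.1% of all ORFs were lower and 1.1% higher with harringtonine). 4 members had an unadjusted p under 0.05 there, namely Kars, Lars, Lars2 and Mars2, DESeq2 called Lars, and limma called Lars and Lars2. Without harringtonine replicate 1, edgeR called 4 cytosolic and 3 mitochondrial members lower with harringtonine than with puromycin.

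The largest of these differences were those of Dars, with a log2 fold change of -3.73 ± 0.49 (adjusted p = 4.1e-12) for DMDA-PatA against harringtonine and -3.67 ± 0.49 (adjusted p = 3.0e-12) against puromycin by edgeR. Wars followed with -2.95 ± 0.48 (adjusted p = 2.2e-08) and -2.90 ± 0.48 (adjusted p = 1.9e-08), and Nars with -2.45 ± 0.48 (adjusted p = 2.8e-06) and -2.57 ± 0.48 (adjusted p = 5.4e-07). All 3 lay further below 0 than the medians of all ORFs. Sars lay near those medians, at -1.38 ± 0.46 (adjusted p = 0.0071) and -1.57 ± 0.46 (adjusted p = 0.0015) by edgeR, and the former was -1.13 (adjusted p = 0.1) without DMDA-PatA replicate 1. Under TMM these values of Sars were -0.08 and 0.20, so that the second turned. Kars differed from these in sign for DMDA-PatA against harringtonine, with 0.91 ± 0.46 (adjusted p = 0.082), which did not pass in edgeR, and was at -0.10 ± 0.46 (adjusted p = 0.85) against puromycin and -1.01 ± 0.46 (adjusted p = 0.15) for harringtonine against puromycin by edgeR. The first of these was called by DESeq2 (0.91, adjusted p = 0.030), with exchanged size factors (1.36, edgeR adjusted p = 4.6e-06) and under TMM (2.25, edgeR adjusted p = 4.4e-08). Without harringtonine replicate 1 the 2 comparisons of Kars with harringtonine gave 1.25 (DMDA-PatA, adjusted p = 0.016) and -1.34 (harringtonine against puromycin, adjusted p = 0.014).

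The share of all synthetase ORF reads that lay on mitochondrial members gives the balance of the 2 sets within a library, whatever its size factor. It was 5.56% and 5.91% in the control (5.74% ± 0.246, SD, n = 2). With DMDA-PatA it was 8.93% and 8.84% (8.89% ± 0.0640, SD, n = 2), and both libraries lay above both control libraries. With harringtonine it was 5.87% and 6.07% (5.97% ± 0.141, SD, n = 2), which overlapped the control, and with puromycin 7.27% and 6.42% (6.84% ± 0.598, SD, n = 2), which did not. The exact two-sided permutation test gave p = 0.333 for DMDA-PatA and for puromycin and 0.667 for harringtonine, and 0.333 is the smallest p that 2 against 2 libraries allow. This test therefore cannot reach the threshold with these libraries. Per kb of ORF the puromycin libraries (8.36% and 6.62%) overlapped the control (6.60% and 7.11%), and the harringtonine libraries (5.95% and 6.20%) lay below it. The mean with harringtonine was also below that of the control without Gars and Kars and without short listed ORFs, so its direction turned in these 3 alternatives. In the transcriptome the share was 10.0% and 10.9% (10.4% ± 0.602, SD, n = 2).

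**Figure D3:**
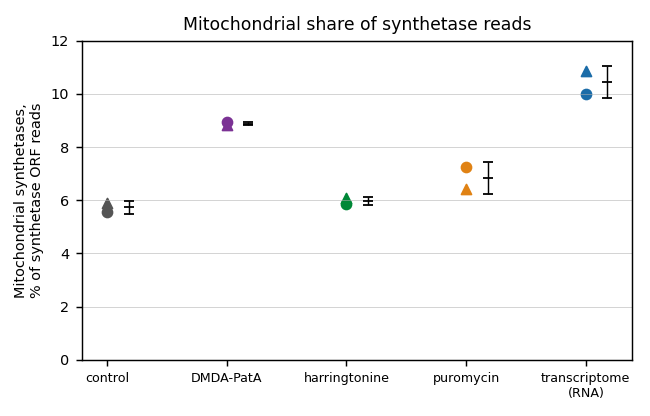
Share of synthetase ORF reads on the 17 mitochondrial members, in percent, in the 2 libraries of each condition and of the transcriptome (circle, replicate 1; triangle, replicate 2), with the mean and SD beside them. The DMDA-PatA libraries lie at 8.93% and 8.84%, above the control at 5.56% and 5.91% and below the transcriptome at 10.0% and 10.9%.

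A 5' UTR value was listed for 36 members, all but Yars2. The median listed 5' UTR was 108 nt in cytosolic and 139 nt in mitochondrial members, against 164 nt in all coding transcripts. Per kb of 5' UTR, the control footprints were highest on Eprs (1681) and Lars (1577) among the cytosolic members, and the mitochondrial Tars2 had 324. The cytosolic Cars, Farsb, Gars, Hars and Rars had 0 footprints there in both control libraries, where 0 allows up to 3 reads a library, and so did the mitochondrial Aars2, Mars2, Rars2 and Wars2. Qars, Ears2, Iars2 and Sars2 had at most 2.36 normalized footprints in a control library. The 5' UTRs of 14 cytosolic and 9 mitochondrial members held at least 10 reads in at least 2 libraries and were tested, among 6647 in all.

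With DMDA-PatA most calls were gains in the cytosolic set and losses in the mitochondrial set. By edgeR 4 of 14 cytosolic 5' UTRs rose and 1 fell, while 1 of 9 mitochondrial 5' UTRs rose and 5 fell. Over all 5' UTRs tested 14.7% rose and 29.0% fell. The median log2 fold change was 0.88 for cytosolic, -1.32 for mitochondrial and -0.48 for all 5' UTRs. The 4 were 2 without DMDA-PatA replicate 2. The 5 were 2 without control replicate 1 or DMDA-PatA replicate 1 and 3 without control replicate 2, and the 1 that rose was lost without control replicate 2 or DMDA-PatA replicate 2. With harringtonine 7 cytosolic 5' UTRs rose and none fell, and 1 mitochondrial 5' UTR rose and 1 fell (35.1% and 5.21% of all), with medians of 1.45, -0.01 and 0.88. The 7 were 4 without control replicate 2. The 1 that rose was lost without control replicate 1 or harringtonine replicate 1, and the count of 1 that fell was 0 without control replicate 1, control replicate 2 or harringtonine replicate 2. With puromycin edgeR called none (0.557% rose and 0.406% fell of all), with 0 cytosolic members and 1 mitochondrial member at an unadjusted p under 0.05. DESeq2 and limma also called none.

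**Figure D4:**
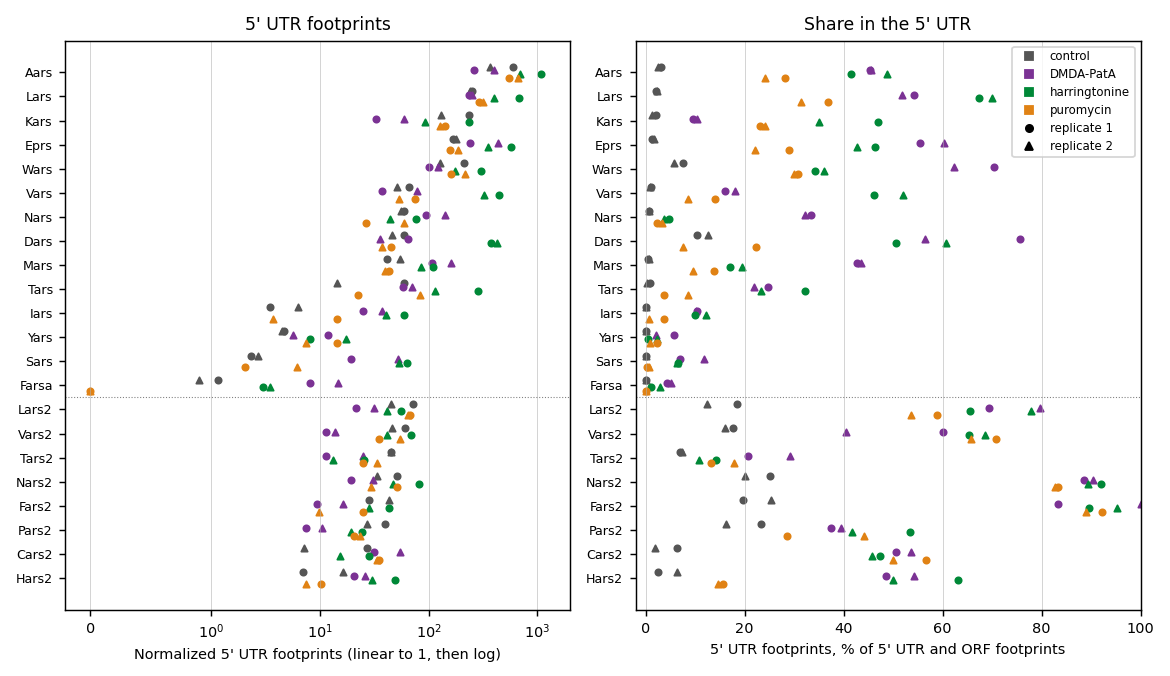
Normalized 5' UTR footprints (left, linear to 1 and then log axis) and the 5' UTR share of 5' UTR and ORF footprints in percent (right) of 22 of the members tested, cytosolic above and mitochondrial below the dotted line, in the control and with each drug (circle, replicate 1; triangle, replicate 2). The DMDA-PatA points of Vars2, Pars2, Fars2 and Tars2 lie left of their control points, those of Sars, Iars, Mars and Farsa lie right of them, and in every gene the control shares are lower than those with DMDA-PatA.

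Sars had 2.36 and 2.72 normalized 5' UTR footprints in the control, 19.6 and 52.8 under DMDA-PatA, 62.9 and 53.9 under harringtonine and 2.07 and 6.22 under puromycin. It rose with DMDA-PatA (log2 fold change 3.75 ± 0.72, adjusted p = 3.1e-06) and with harringtonine (4.45 ± 0.71, adjusted p = 2.5e-08) by edgeR, from a control of 5 reads in all. Iars had 3.54 and 6.35 in the control, 25.3 and 37.3 under DMDA-PatA and 59.9 and 40.6 under harringtonine, which were log2 fold changes of 2.59 ± 0.65 (adjusted p = 0.00042) and 3.27 ± 0.65 (adjusted p = 7.5e-06) by edgeR. Both rose from few control footprints. Mars had 41.3 and 54.4 in the control and 107 and 162 under DMDA-PatA (1.48 ± 0.48, edgeR adjusted p = 0.0069), with adjusted p of 0.13 without control replicate 1 and 0.053 without DMDA-PatA replicate 2. Farsa had 1.18 and 0.906 in the control, 1 read in each library, and 8.21 and 14.6 under DMDA-PatA. The pooled ratio of DMDA-PatA to control was 10.7 (exact binomial 95% interval 2.73 to 92.6), and the log2 fold change was 3.31 ± 1.04 (adjusted p = 0.0055) by edgeR (adjusted p 0.068 without control replicate 2 and 0.052 by DESeq2).

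The exception of the cytosolic set was Kars, with 235 and 131 normalized 5' UTR footprints in the control, 32.8 and 59.3 under DMDA-PatA, 234 and 93.1 under harringtonine and 143 and 128 under puromycin. The DMDA-PatA libraries lay below all others, and the log2 fold change was -1.99 ± 0.47 (adjusted p = 0.00019) by edgeR. Of this stretch 57 nt are coding in another Kars transcript, and where the reads lie within it was not tested.

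With harringtonine the other cytosolic 5' UTRs that rose were those of Dars, Vars, Tars, Eprs and Lars. Dars had 60.1 and 46.2 normalized 5' UTR footprints in the control and 378 and 425 under harringtonine (2.92 ± 0.49, edgeR adjusted p = 1.0e-07), beside 368 and 274 on its listed ORF. Vars had 66.0 and 51.7 in the control and 441 and 322 under harringtonine (2.70 ± 0.48, edgeR adjusted p = 7.1e-07). Tars had 60.1 and 14.5 in the control and 283 and 114 under harringtonine (2.43 ± 0.49, edgeR adjusted p = 1.3e-05, adjusted p 0.053 without control replicate 2). The calls of Eprs and Lars were lost when single libraries were left out. Eprs had 169 and 178 in the control, 242 and 430.2 under DMDA-PatA and 569 and 351 under harringtonine (1.41 ± 0.45, edgeR adjusted p = 0.0068, adjusted p between 0.091 and 0.11 without control replicate 1, control replicate 2 or harringtonine replicate 1). Lars had 249.9 and 242 in the control, 237 and 251 under DMDA-PatA and 684 and 398 under harringtonine (1.14 ± 0.44, edgeR adjusted p = 0.029, adjusted p between 0.16 and 0.3 without the same libraries).

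In the mitochondrial set Vars2 had 61.3 and 46.2 normalized 5' UTR footprints in the control and 11.4 and 13.8 under DMDA-PatA (-2.09 ± 0.54, edgeR adjusted p = 0.00068). Pars2 had 40.1 and 27.2 in the control and 7.58 and 10.6 under DMDA-PatA (-1.88 ± 0.59, edgeR adjusted p = 0.0051, adjusted p 0.084 without control replicate 1 and 0.053 without DMDA-PatA replicate 1). These calls differ in how far they depend on 1 library.

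Fars2 had 28.3 and 43.5 normalized 5' UTR footprints in the control and 9.47 and 16.2 under DMDA-PatA (-1.50 ± 0.56, edgeR adjusted p = 0.021, adjusted p 0.23 without control replicate 2 and 0.16 without DMDA-PatA replicate 1). Tars2 had 44.8 and 45.3 in the control and 11.4 and 25.2 under DMDA-PatA (-1.32 ± 0.54, edgeR adjusted p = 0.036, adjusted p between 0.12 and 0.29 without control replicate 1, control replicate 2 or DMDA-PatA replicate 1). Against these, Cars2 rose, with 27.1 and 7.25 in the control and 31.6 and 55.2 under DMDA-PatA (1.37 ± 0.55, edgeR adjusted p = 0.034, adjusted p 0.51 without control replicate 2 and 0.22 without DMDA-PatA replicate 2). With harringtonine Hars2 rose from 7.07 and 16.3 to 48.7 and 30.1 (1.70 ± 0.58, edgeR adjusted p = 0.012, adjusted p 0.2 without control replicate 1 and 0.13 without harringtonine replicate 1).

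The 5' UTRs of Aars, Nars, Wars and Yars and of Lars2 and Nars2 were tested and called with no drug. Aars had 601 and 369 normalized 5' UTR footprints in the control, 261 and 399 under DMDA-PatA, 1072 and 695 under harringtonine and 552 and 658 under puromycin. Wars had 213 and 129 in the control, 102 and 121 under DMDA-PatA, 304 and 174 under harringtonine and 159 and 216 under puromycin. Lars2 had 71.9 and 45.3 in the control, 21.5 and 31.7 under DMDA-PatA, 55.8 and 42.0 under harringtonine and 68.2 and 64.7 under puromycin. For Aars and Wars some drug libraries lay within the range of the control, and for Lars2 the DMDA-PatA libraries lay below both control libraries without passing the test.

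Since ORF footprints fell more than 5' UTR footprints, the share of a transcript's footprints that lay in the 5' UTR went up for most members with each drug. A fit with a term for each library compared the change in the 5' UTR with that in the ORF of the same transcript, so that no scaling of a library enters. By edgeR the 5' UTR gained on the ORF in 14 of 14 cytosolic and 9 of 9 mitochondrial members with DMDA-PatA (93.5% of the 6497 tested), in 14 and 8 under harringtonine (95.4%) and in 12 and 9 under puromycin (78.4%). Medians with DMDA-PatA were 5.72 for cytosolic, 4.49 for mitochondrial and 4.34 for all transcripts on the log2 scale. They were 5.36, 4.41 and 3.97 under harringtonine, and 3.67, 3.34 and 2.52 under puromycin. The 9 under puromycin were 5 without control replicate 1.

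The gain was largest on Sars, where the 5' UTR held 0.0287 and 0.0386% of 5' UTR and ORF footprints in the control and 6.86 and 11.9% under DMDA-PatA, a log2 change of 8.04 ± 0.53 (adjusted p = 2.1e-11) by edgeR. For Mars the share went from 0.548 and 0.784% to 42.7 and 43.4% (6.81 ± 0.38, edgeR adjusted p = 4.2e-12). For Kars it was 2.08 and 1.23% in the control, 9.54 and 10.4% under DMDA-PatA, 47.0 and 35.0% under harringtonine and 23.1 and 24.1% under puromycin, with log2 changes of 2.76 ± 0.38 (adjusted p = 8.0e-07), 5.41 ± 0.39 (adjusted p = 8.0e-11) and 4.24 ± 0.39 (adjusted p = 2.2e-08) by edgeR. Kars thus had the smallest gain with DMDA-PatA among the cytosolic members tested and lay near their median with harringtonine.

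Some mitochondrial members carried a large part of their footprints in the 5' UTR even without a drug. Nars2 had 25.1 and 20.1% in the control and 88.6 and 90.5% under DMDA-PatA, and Fars2 19.7 and 25.4% and 83.3 and 100.0% (5.28 ± 0.81, edgeR adjusted p = 3.4e-06). The 100% of Fars2 reflects 0 reads on its ORF in that library. In the 232 nt that GENCODE M21 gives as the Fars2 5' UTR, 84 nt are coding in another Fars2 transcript. The shares were counted on a listed 5' UTR of 679 nt, which was not checked as a whole. The listed ORF of Fars2 is 48.5% of the longest. In Nars2 201 nt of the 5' UTR lie in exons of a gene on the other strand, and use of strand in counting is not known. How far this enters the shares was not tested. No cytosolic member reached the control shares of these 2.

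With DMDA-PatA and with harringtonine the smallest gains were those of Pars2 and Tars2. Tars2 had 6.90 and 7.34% in the control, 20.7 and 29.2% under DMDA-PatA, 14.3 and 10.7% under harringtonine and 13.2 and 17.8% under puromycin. By edgeR its log2 changes were 2.12 ± 0.44 (adjusted p = 0.00014), 0.89 ± 0.44 (adjusted p = 0.057) and 1.27 ± 0.45 (adjusted p = 0.015) in that order, and the second passed only without harringtonine replicate 2 (1.11, adjusted p = 0.049) and with the replicate block (0.88, adjusted p = 0.036) among the alternatives run. The third was not called without control replicate 1 (adjusted p = 0.053) or puromycin replicate 2 (adjusted p = 0.17). In the block alternative of this fit, condition and replicate terms took the place of the library terms, so scaling of a library can enter there. Pars2 had log2 changes of 1.35 ± 0.55 (adjusted p = 0.026), 1.85 ± 0.50 (adjusted p = 0.0014) and 1.25 ± 0.54 (adjusted p = 0.038) by edgeR, the first of which was not called without control replicate 2, DMDA-PatA replicate 1 or DMDA-PatA replicate 2 and the third not without control replicate 2 or puromycin replicate 2. With puromycin, Dars (0.13 ± 0.50, adjusted p = 0.82) and Farsa (-0.9953 ± 1.81, adjusted p = 0.64) did not pass by edgeR, and for Sars the gain of 3.63 ± 0.89 (adjusted p = 0.0011) was 2.45 (adjusted p = 0.22) without puromycin replicate 2.

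Other genes of tRNA charging and delivery were read in the same way from a list of 22, which held the scaffold proteins of the complex (Aimp1, Aimp2 and Eef1e1), editing and amidation factors, the tRNA exporter Xpot and the elongation factors that carry charged tRNA to the ribosome. Their ORFs were lowered in 22 of 22 with each drug by edgeR, close to the 99.8%, 93.9% and 91.1% of all ORFs. In the control 14 had more footprints than RNA and none fewer (29.9% and 41.2% of all). Relative to the bulk, 4 were lower and 6 higher with DMDA-PatA (23.5% and 18.6% of all), 11 lower and 8 higher with harringtonine (29.9% and 26.3%) and 10 lower and 3 higher with puromycin (24.9% and 24.1%). The scaffold proteins had smaller folds than the median of the enzymes of the complex in 8 of 9 values. Their ORFs were also short, with 957 nt for Aimp1, 960 nt for Aimp2 and 522 nt for Eef1e1. The enzymes of the complex, apart from Dars (261 nt), had 1872 to 4536 nt. The part of ORF length in this contrast was not tested. Fold inhibitions by DMDA-PatA, harringtonine and puromycin were 10.6, 3.47 and 5.06 for Aimp1, 35.3, 3.95 and 4.17 for Aimp2 and 10.9, 2.74 and 3.34 for Eef1e1. At the other end, Eef1a1, which brings charged tRNA to the ribosome, had 56.6, 92.2 and 115, and Xpot had 86.8, 63.3 and 21.3. Mtfmt, which formylates the mitochondrial initiator tRNA, had 6.01, 2.03 and 3.80. Of 9 pathway 5' UTRs tested, 3 rose with DMDA-PatA (Aimp1, Aimp2 and Eef1d), 6 under harringtonine and none with puromycin by edgeR (14.7%, 35.1% and 0.557% of all), and none fell.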

How the data were processed

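Footprints and transcriptome reads of CGR8 cells were sequenced by the authors on a SOLiD sequencer, aligned in color space with LifeScope to mm10 (GRCm38) and counted per listed region, keeping matches of 26 to 36 nt with a quality of at least 10 and leaving out multiple matches. Picard 1.38 is named in the submitters' processing notes. The values the authors deposited are a signal, whole reads multiplied by 1 factor per library, which for footprints is a DESeq2 size factor from spike-in reads. In the transcriptome the factor differed between regions. Dividing by this factor gave whole reads in 100% of values at a tolerance of 0.001. Whole counts had been assumed in the design, and the count test was therefore run on the recovered reads. The deposited values themselves were used for levels and fold inhibition.

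Counts of coding ORFs and 5' UTRs reaching 10 reads in 2 or more libraries were tested in edgeR 4.0.16 (quasi-likelihood test, Benjamini-Hochberg adjustment over all features, adjusted p of 0.05) in R 4.3.3. The 4 footprint conditions shared one fit with the authors' size factors. The SE given with edgeR values was derived from the test, as the absolute log2 fold change divided by the square root of its F statistic. Further fits used TMM (relative to the bulk), library terms (5' UTR against ORF) and equal sums of reads (TE). The alternatives were TMM, DESeq2 1.42.0, limma 3.58.1 on log2(value + 1), exchanged size factors, other filters, a replicate block and leaving out each library. Gene symbols and starts were taken from GENCODE M21, which held 15074 of 15269 listed transcripts. Python 3.11.15 with SciPy 1.17.1, pandas 2.3.3, numpy 2.4.6 and Matplotlib 3.10.9 served for the rest. The ORF test of drug against control (edgeR, DESeq2 and limma) and the edgeR test of 5' UTR against ORF were tried on simulated data. The other tests were not.

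Values in every library are given for members at the extremes of control level, inhibition or 5' UTR level, for members called relative to the bulk, and for Gars and Kars, and were extended to the other members, except that 1 member counted in the sets is not reported by name. Genes of the multi-synthetase complex, 22 pathway genes and 3 marker lists were also read. The members and lists were chosen with earlier results of these data known. Replicates are numbered in the labels, which do not say that samples share a batch. The correlation of same-numbered deviations from the group means was between -0.02 and 0.05 over 12294 ORFs, so replicates were not paired in the main fits. Replicate values of folds and ratios combine same-numbered libraries as a description only. Read numbers and intervals cover counting error only.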

Additional observations from a re-analysis of the deposited data

How the results depend on the processing

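With 2 libraries per condition, the spread between replicates limits every call, and ORFs with few reads after DMDA-PatA, such as that of Fars2, are also limited by depth. Leaving out a library kept 174 of 216 summary values within 1.5 times of the value reported or within the replicate spread, and 620 of 688 gene results on their side of the threshold (60 lost it, 8 gained it, none turned). The other alternatives kept 231 of 286 summary values and 874 of 923 gene results, and 9 of the latter changed sign.

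Over the fits without 1 library, counts ranged as follows. In 5' UTRs with DMDA-PatA, 2 to 5 cytosolic members were higher, 2 to 6 mitochondrial lower and 0 to 1 higher. With harringtonine 4 to 8 cytosolic members were higher, and 0 to 1 mitochondrial were lower and 0 to 1 higher. In the 5' UTR against ORF fit with puromycin, 5 to 8 mitochondrial members were called. DMDA-PatA was below harringtonine in 4 to 15 cytosolic and 0 to 6 mitochondrial members and below puromycin in 8 to 15 and 3 to 9, and harringtonine was below puromycin in 0 to 4 and 0 to 3. Relative to the bulk, DMDA-PatA gave 1 to 3 higher cytosolic, 1 to 3 lower mitochondrial and 4 to 6 higher mitochondrial members, harringtonine 2 to 4 higher cytosolic and 1 to 2 higher mitochondrial members, and puromycin 0 to 1 higher mitochondrial members. In TE 1 to 5 mitochondrial members were higher. The median inhibition by harringtonine was 9.63 to 15.8 for cytosolic and 8.77 to 14.7 for mitochondrial members.

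TMM removes the common fall, by construction. With it, the lowered ORFs were 9 cytosolic and 4 mitochondrial with DMDA-PatA, and 8 mitochondrial with harringtonine and with puromycin. DMDA-PatA was below harringtonine in 4 cytosolic and 0 mitochondrial members and below puromycin in 3 and 0, and harringtonine below puromycin in 2 and 1. In 5' UTRs TMM gave 8 cytosolic higher, 3 mitochondrial lower and 2 higher with DMDA-PatA, and 1 cytosolic lower, 4 mitochondrial lower and 0 higher with harringtonine. Among the members whose ORF value against the control is printed on the spike-in scale, signs turned under TMM for Dars (DMDA-PatA 0.15, harringtonine 2.53, puromycin 2.06), Gars (0.074), Qars (0.75) and Sars2 (1.31), all with DMDA-PatA where no drug is named. They also turned for the members given as above the bulk, for DMDA-PatA against puromycin in Kars (1.66) and Sars (0.20), and for the 5' UTR of Lars with DMDA-PatA (0.62). Median inhibitions with equal sums and with TMM were 1.15 and 1.24 (DMDA-PatA), 1.93 and 1.71 (harringtonine) and 1.80 and 1.77 (puromycin) for cytosolic members. For mitochondrial members they were 0.657 and 0.714, 1.49 and 1.33, and 1.38 and 1.36, so the direction with DMDA-PatA turned.

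When DMDA-PatA and harringtonine libraries traded size factors, 8 cytosolic and 5 mitochondrial members were lower with harringtonine than with puromycin, and in mitochondrial 5' UTRs 2 were higher with DMDA-PatA and 2 lower with harringtonine. DESeq2 called 0 mitochondrial 5' UTRs higher with DMDA-PatA, 2 mitochondrial members below the bulk with DMDA-PatA, 2 lower in TE and 1 cytosolic member lower with harringtonine than with puromycin. Limma called 1 of each set there. Without a filter 0 mitochondrial 5' UTRs were higher with DMDA-PatA and 0 lower with harringtonine. Equal sums gave 2 cytosolic members above the bulk with harringtonine, and DESeq2 size factors 2 mitochondrial members above it with puromycin. With at least 100 reads the mitochondrial median with puromycin was 9.32, against 9.81 for cytosolic members.

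The mitochondrial share without Gars and Kars, per kb and without members with a short listed ORF was 6.69%, 6.86% and 5.27% in the control and 10.6%, 10.4% and 8.06% under DMDA-PatA. With harringtonine it was 6.54%, 6.08% and 5.04%, below the control each time, and with puromycin 7.53%, 7.49% and 5.85%.

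With the replicate block 45 of 46 summary results stayed within 1.5 times and 175 of 179 gene results kept their call, and 0 mitochondrial 5' UTRs were called lower with harringtonine. The log2 values under the block were 1.12 for Lars (harringtonine, adjusted p = 0.065) and -1.33 for Tars2 (DMDA-PatA) in the 5' UTR, which lost their call, and 0.88 for Tars2 (harringtonine, adjusted p = 0.036) and 1.21 for Pars2 (puromycin) in the 5' UTR against ORF fit, which gained and lost it. In the 5' UTR against ORF fit the block alternative held condition and replicate terms in place of the library terms. The cause of the changes under the block was not tested. The limma, TMM-median and short-ORF alternatives were chosen after seeing the data.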
